A study of Mus musculus with 3 samples.

Results

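The collagen gene family was followed across the cell classes of arthritic mouse knee synovium in single-cell RNA sequencing data. A gene was a member when its symbol was Col, a number, the letter a and a number, and nothing more. The pattern matched 44 of the 24357 symbols in the 3 matrices. By type, 11 encode fibrillar chains, 6 the type IV chains of basement membranes, 9 fibril-associated collagens, 6 the beaded-filament type VI chains, 3 short-chain network collagens, 4 transmembrane collagens, 2 the multiplexins of the basement-membrane zone and 3 other collagens (Col7a1, Col26a1 and Col28a1). The 3 libraries form a single group: female wild type C57BL/6 mice, 8 weeks old, with an arthritis induced by collagen and antibodies (C&AIA). The mice were immunised with 100 µg of type II collagen on day 0, given 1 mg of monoclonal antibodies against type II collagen on day 21 and lipopolysaccharide (LPS) on day 22, and their inflamed knees were sampled at the effector phase. Each library pooled the synovium of 2 of the 6 mice and was dissociated with collagenase II and DNase I, so animals within a library cannot be told apart. No library of untreated mice was analysed here, so every comparison is between cell classes of the same libraries and none is between disease and health.

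Collagens are trimers of chains wound into a triple helix, and each type has its own mix of chains. Fibrillar collagens, above all types I and III, assemble into the banded fibrils that carry load in tendon, ligament, joint capsule and bone, while type II does so in cartilage. Type IV collagen forms the sheet-like network of basement membranes, which in synovium surround blood vessels and fat cells but not the lining layer, and types XV and XVIII sit where such membranes meet the surrounding matrix. Fibril-associated collagens decorate fibrils and space them, and type VI forms fine beaded filaments around cells.

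The 3 libraries held 11939, 11602 and 15263 cell barcodes with 101384374, 99782608 and 116125707 unique molecular identifiers (UMIs, 1 per captured transcript). The labels state 11111, 10668 and 14363 cells, fewer than the barcodes in the files, and 36869 cells were kept after 82 barcodes of low quality and 1853 called doublets were removed. Barcode names are serial numbers within a library: 6091 names occur in 2 libraries and 693 in all 3, so a shared name is not a shared cell. Cells were assigned to classes by marker genes that include no collagen, and the names end in "-like" for that reason. The fibroblast-like class (7586 cells) expressed Pdgfra at 106 CPM (UMIs of the gene per 1000000 UMIs of the class) against 5.89 in endothelial-like cells (1260 cells), which expressed Pecam1 at 971. Mural-like cells (523, pericytes and smooth muscle) expressed Rgs5 at 5929, and tenocyte-like cells (820, stroma of tendon, ligament and fibrocartilage) expressed Fmod at 555. Fibroblast sub-classes were cut from a marker score, so they are ranges rather than types. In the fibroblast-like class 1826 cells were lining-like and 2369 sublining-like, and 3391 lay between them. Of all 8444 cells in the fibroblast gate, tenocyte-like cells included, 3394 were within 0.05 of the cut. The median Prg4 level over cells was 176 per 10000 UMIs in the lining-like and 7.90 in the sublining-like cells. Levels are given as CPM of the class in each library, for replicates 1, 2 and 3 in that order. They are compared along a gene, not between genes. Ratios of 2 genes and shares of type groups are ratios of UMIs, and they are compared between classes.

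Collagen genes took larger shares of RNA in tenocyte-like and fibroblast-like cells than in the vessel classes. Lining-like cells alone averaged no more than mural-like cells, and the makeup by type differed between stroma and vessels. The family took 5.13% ± 0.128 (SD, n = 3 libraries, as for all such values) of all UMIs in fibroblast-like cells, 8.72% ± 0.452 in tenocyte-like cells, 2.79% ± 0.0540 in mural-like cells and 1.10% ± 0.0421 in endothelial-like cells. Within the fibroblast-like class the sublining-like cells gave 7.70% ± 0.322 and the lining-like cells 2.68% ± 0.288, and the 3 libraries of the 2 sub-classes did not overlap. In neutrophil-like and monocyte/macrophage-like cells the family's share was 0.580% ± 0.0284 and 0.426% ± 0.0315. Fibrillar genes made up 91.2% ± 0.316 of the family's UMIs in fibroblast-like cells, 57.6% ± 1.77 in mural-like and 35.0% ± 0.894 in endothelial-like cells. Type IV genes made up 1.08% ± 0.109, 17.8% ± 1.08 and 49.2% ± 1.06 in the same order, and the multiplexins 0.183% ± 0.0108, 5.06% ± 0.207 and 11.8% ± 0.938. The mural-like class also gave type VI a share of 18.0% ± 0.832, against 6.10% ± 0.563 in fibroblast-like cells.

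**Figure D1:**
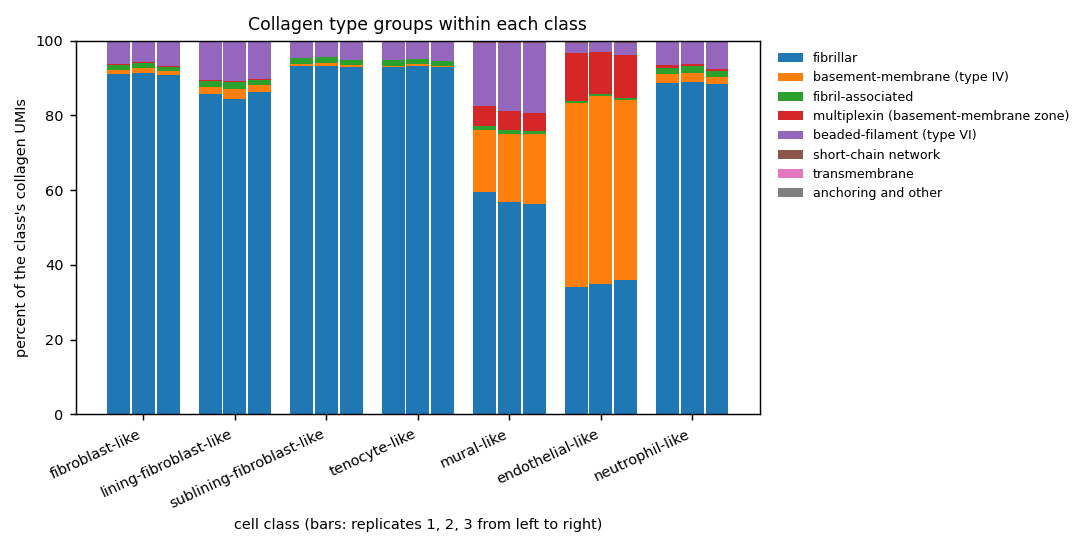
Share of each class's collagen UMIs (vertical axis, percent) by type group (colours), with 1 bar per library for 7 cell classes. Fibrillar genes fill most of every stromal and neutrophil-like bar, while type IV and multiplexin genes fill more than the fibrillar ones in all 3 endothelial-like bars.

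Of the 44 genes, 27 reached a mean of 10 CPM in at least 1 of the 14 classes with 20 or more cells in every library. The class with the highest mean was tenocyte-like for 12 of them (Col1a1, Col1a2, Col3a1, Col5a1, Col5a2, Col6a1, Col8a1, Col8a2, Col11a1, Col12a1, Col14a1 and Col16a1) and pericyte-like, a sub-class of mural-like, for 5 (Col4a1, Col5a3, Col6a2, Col6a3 and Col18a1). Capillary-endothelial-like cells were highest for Col4a2, Col13a1 and Col28a1, venular-endothelial-like cells for Col15a1, sublining-fibroblast-like cells for Col23a1 and Col24a1, lining-fibroblast-like cells for Col22a1, mural-like cells for Col6a4, osteoclast-like cells for Col27a1 and neutrophil-like cells for Col2a1. The Col3a1 place was narrow, at a mean of 13526 CPM against 13389 in sublining-fibroblast-like cells, with overlapping libraries. The Col2a1 place rested on 2 neutrophil-like cells, without which the pooled level was 2.83 CPM. Chondrocyte-like cells were too few to be among the 14 classes. The other 17 stayed below 10 CPM in all 14 classes, among them the type IV chains Col4a3 to Col4a6, the type IX chains Col9a1 to Col9a3 of cartilage, Col10a1 of growth-plate cartilage, with 35 UMIs in all cells, and Col7a1 of anchoring fibrils, with 291.

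**Figure D2:**
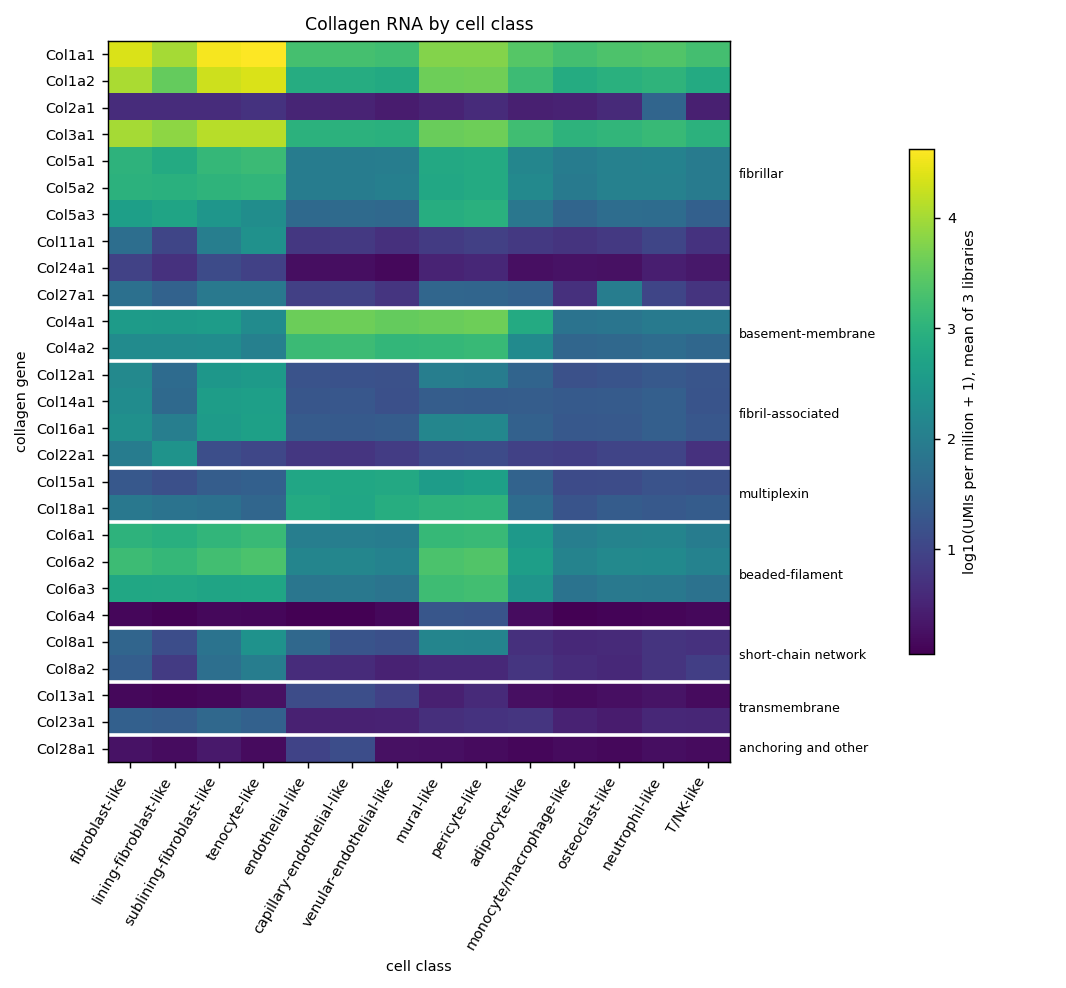
Mean level of the 27 genes with at least 10 CPM in some class (rows, by type group) in 14 cell classes (columns), as log10 of CPM plus 1. Colours are to be compared along a row; type IV and multiplexin rows are brightest in the endothelial-like and mural-like columns and most fibrillar rows in the stromal columns.

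Promoter sequence was available from RefSeq (assembly GRCm38.p6) for 35 of the 44 genes, in 38 windows of the 250 bases before a transcript start. Windows of 4 genes are printed because the results turn on them: Col1a2 and Col3a1, fibrillar genes called in the same direction against both vessel classes and between lining and sublining, and Col15a1 and Col18a1, both higher in the vessel classes. They lie at chr6:4505368-4505617 (plus strand, Col1a2), chr1:45311288-45311537 (plus, Col3a1), chr4:47207762-47208011 (plus, Col15a1) and chr10:77166531-77166780 (minus, Col18a1). Each is written 5′ to 3′ along the gene, and capitals mark a CCAAT box (CCAAT, on the other strand read as ATTGG), a GC box (GGGCGG, on the other strand read as CCGCCC) or a TATA box (TATAAA, on the other strand read as TTTATA).
Col1a2: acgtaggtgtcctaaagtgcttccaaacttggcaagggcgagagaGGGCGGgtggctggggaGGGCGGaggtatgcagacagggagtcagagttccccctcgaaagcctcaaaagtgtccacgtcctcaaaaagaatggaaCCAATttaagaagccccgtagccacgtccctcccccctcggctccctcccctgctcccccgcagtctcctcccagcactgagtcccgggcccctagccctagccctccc
Col3a1: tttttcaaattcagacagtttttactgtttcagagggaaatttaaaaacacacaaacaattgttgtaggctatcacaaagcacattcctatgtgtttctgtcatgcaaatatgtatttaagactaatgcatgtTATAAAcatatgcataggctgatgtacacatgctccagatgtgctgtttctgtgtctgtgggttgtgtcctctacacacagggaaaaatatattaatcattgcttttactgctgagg
Col15a1: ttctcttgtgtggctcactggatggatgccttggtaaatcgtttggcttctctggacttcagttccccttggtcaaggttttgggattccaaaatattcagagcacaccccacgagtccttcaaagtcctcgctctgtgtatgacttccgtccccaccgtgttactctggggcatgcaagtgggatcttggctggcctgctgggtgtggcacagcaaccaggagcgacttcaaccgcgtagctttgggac
Col18a1: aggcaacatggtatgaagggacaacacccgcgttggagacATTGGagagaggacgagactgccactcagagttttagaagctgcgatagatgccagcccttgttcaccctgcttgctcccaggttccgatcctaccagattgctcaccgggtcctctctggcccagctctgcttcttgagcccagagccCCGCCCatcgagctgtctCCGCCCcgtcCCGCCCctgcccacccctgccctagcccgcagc

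Col1a2 and Col3a1 share none of the 3 motifs in these windows: Col1a2 has a CCAAT box 109 bases before the start and GC boxes at 205 and 188 bases, and Col3a1 has a TATA box at 117 bases. Col18a1 has a CCAAT box at 210 bases and GC boxes at 61, 43 and 33 bases, while the Col15a1 window holds none of these letters. The CCAAT box letters occurred in 13 of the 38 collagen windows and in 33.8% of all 32851 windows of the same length. GC boxes occurred in 22 of 38 and 32.7%, and TATA boxes in 5 of 38 and 12.4%. A match is a run of letters and not evidence of binding.

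Fibrillar genes were far higher in fibroblast-like than in endothelial-like cells. Col1a1, a chain of type I collagen, read 23424, 23027 and 23418 CPM in fibroblast-like cells and 1827, 1875 and 1864 in endothelial-like cells. Its partner chain Col1a2 read 11117, 11452 and 10006 against 746, 712 and 848. Every fibroblast-like value lay far above every endothelial-like one. In the edgeR quasi-likelihood test with the library as a block, a gene was called at an adjusted p (Benjamini-Hochberg) under 0.05 and a log2 fold change of at least 1 in size. A log2 difference is that of the class named first over the class named second, after TMM scaling, so it need not equal the ratio of 2 levels. The difference of fibroblast-like over endothelial-like cells was 3.88 ± 0.074 (SE) for Col1a1 (adjusted p = 2.7e-12) and 4.05 ± 0.091 for Col1a2 (adjusted p = 5.2e-12). Of 35 members tested, 23 were higher in fibroblast-like cells, 6 lower and 6 not called, beside 16.3% and 12.2% of all 14530 genes called higher and lower. The members' median log2 difference was 3.24, against 0.03 over all genes. Of the 11 fibrillar genes 9 were higher and none lower, as were 7 of the 8 fibril-associated genes tested and 3 of the 4 type VI genes.

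Other fibrillar genes followed. Col3a1, the type III chain of pliable tissues, read 10548, 10409 and 9472 in fibroblast-like and 891, 903 and 1116 in endothelial-like cells (log2 difference 3.62 ± 0.095). The type V chains, which start and thin type I fibrils, were higher by 3.68 ± 0.076 (Col5a1), 3.597 ± 0.11 (Col5a2) and 3.61 ± 0.074 (Col5a3). Col11a1, a type XI chain of cartilage fibrils, differed by 3.48 ± 0.24 at a level of only 47.8, 67.7 and 31.5 in fibroblast-like cells, where its replicates differed by 2.15 times. Col27a1, a fibrillar chain of cartilage and bone, differed by 3.15 ± 0.12, and Col24a1, found in bone, read 7.27, 11.1 and 5.57 against 1.06, 0.550 and 0.441. Beyond the fibrillar genes, Col23a1, a transmembrane collagen, was higher by 4.03 ± 0.16 and Col8a2, a short-chain network collagen, by 3.24 ± 0.19.

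Fibrillar, type VI and fibril-associated genes in endothelial-like cells stood within or below the range of neutrophil-like cells. Over the 22 genes with at least 10 CPM in every whole library, the level in neutrophil-like cells was 14.3 to 29.8% of the level in the whole library (median 22.5%). It was 8.71 to 20.9% in monocyte/macrophage-like cells (median 16.5%) and 10.6 to 41.3% in T/NK-like cells (median 16.2%). The top of the neutrophil-like range came from genes that were higher in replicate 3. Col27a1 stood at 23.9, 23.0 and 42.5% and Col11a1 at 20.5, 17.3 and 49.0% in replicates 1, 2 and 3. In endothelial-like cells the 8 fibrillar genes stood at 13.5 to 23.8% of the whole library (median 18.6%), the 3 type VI genes at 16.9 to 22.3% and the 4 fibril-associated genes at 13.4 to 18.8%. The 2 type IV genes stood at 613 to 672% and the 2 multiplexins at 604 to 814%, with Col8a1 at 118%. The endothelial-like levels were not all below those of the other leukocytes: Col27a1 stood at 23.8% against 13.0% in monocyte/macrophage-like cells. When every cell was thinned to 1000 UMIs, a number all barcodes reached, 81.3% of endothelial-like and 89.1% of neutrophil-like cells held a Col1a1 UMI, with median depths before thinning of 12059.5 and 1937 UMIs in replicate 1. The unthinned shares were 99.8% and 98.0%. The share in endothelial-like cells was thus below that in neutrophil-like cells, and the source of these UMIs was not tested. With an estimate of free RNA subtracted, which assumes that free RNA mirrors the summed UMIs of its library and that all UMIs of the neutrophil genes S100a8 and S100a9 in the class are free RNA, endothelial-like Col1a1 read 219, 0 and 0, Col1a2 read 0, 0 and 0 and Col4a1 read 4452, 4449 and 5039 CPM, and the type IV share of the class was 77.6% in place of 49.2%.

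**Figure D3:**
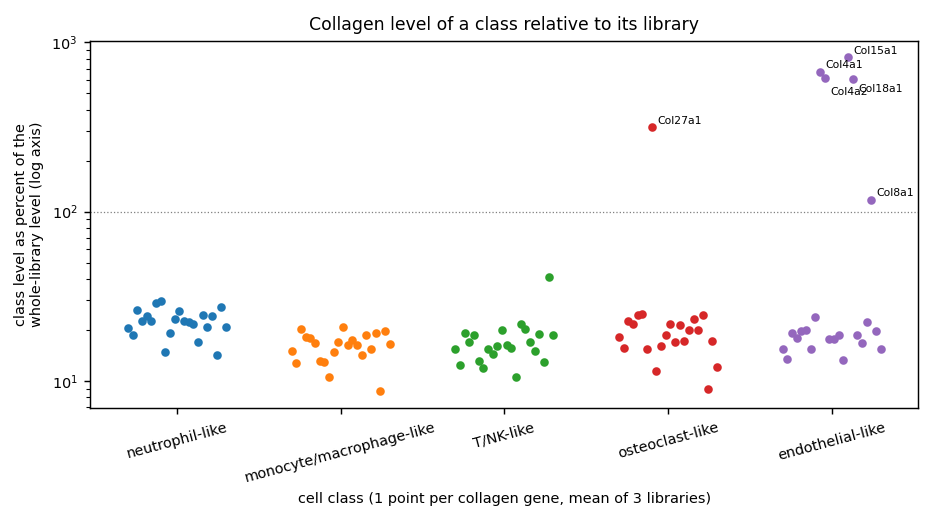
Level of each collagen gene in a class as a percent of its level in the whole library (log axis), with 1 point per gene, the mean of 3 libraries, for 5 classes. Leukocyte points lie in a band below the dotted line at 100% except Col27a1 in osteoclast-like cells, and Col4a1, Col4a2, Col8a1, Col15a1 and Col18a1 lie above it in endothelial-like cells.

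Basement-membrane genes ran the other way. Col4a1, 1 of the 2 chains of the common type IV network, read 3869, 3851 and 4009 CPM in endothelial-like cells and 3532, 3709.8 and 3945 in mural-like cells, against 358, 417 and 332 in fibroblast-like cells. Its partner Col4a2 read 1458, 1471 and 1483 in endothelial-like, 1175, 1269 and 1241 in mural-like and 185, 203 and 161 in fibroblast-like cells. All vessel values stood above all fibroblast-like values, and those of endothelial-like and mural-like cells overlapped for Col4a1 only. The log2 difference of fibroblast-like over endothelial-like cells was -3.18 ± 0.079 (edgeR adjusted p = 1.0e-11) for Col4a1 and -2.79 ± 0.074 for Col4a2. Over mural-like cells it was -2.95 ± 0.081 and -2.36 ± 0.078. Between endothelial-like and mural-like cells neither was called, at 0.24 ± 0.062 and 0.43 ± 0.066.

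The ratio of Col4a1 to Col4a2 UMIs was 2.66 ± 0.0427 in endothelial-like, 3.04 ± 0.131 in mural-like and 2.02 ± 0.0680 in fibroblast-like cells, and no library of one class overlapped another class. The ratio in neutrophil-like cells, 1.87 ± 0.0288, was near that of fibroblast-like cells. In adipocyte-like cells (170 cells), the fat cells of synovium, it was 4.07 ± 0.377: Col4a1 read 779, 672 and 649, above every fibroblast-like value, while Col4a2 read 175, 181 and 161, overlapping them. After thinning, 45.9% (exact binomial 95% interval 38.2 to 53.7%) of adipocyte-like cells held a Col4a1 UMI, against 8.12% (exact binomial 95% interval 7.64 to 8.63%) of neutrophil-like cells (unthinned 91.2% and 18.3%). The other type IV chains, Col4a3 to Col4a6, which replace the common chains in kidney, eye and a few other tissues, gave 66, 101, 285 and 101 UMIs in all cells.

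Both multiplexins were higher in the vessel classes than in fibroblast-like cells. Col15a1 read 610.1, 577 and 555 CPM in endothelial-like cells, 454, 311 and 376 in mural-like cells and 22.9, 21.9 and 14.3 in fibroblast-like cells, where it was near the 18.0, 15.9 and 12.4 of neutrophil-like cells. Col18a1, the precursor of the anti-angiogenic fragment endostatin, read 790.3, 608 and 747 in endothelial-like, 1029, 1093 and 969.5 in mural-like and 79.0, 68.3 and 75.9 in fibroblast-like cells. Vessel values stood above fibroblast-like values in every library for both genes. For Col15a1 the log2 difference of fibroblast-like cells was -4.68 ± 0.11 over endothelial-like (edgeR adjusted p = 5.3e-12) and -3.89 ± 0.12 over mural-like cells. For Col18a1 it was -3.03 ± 0.066 and -3.40 ± 0.085. Between the 2 vessel classes the order differed by gene, Col15a1 being higher in endothelial-like and Col18a1 in mural-like cells in all 3 libraries, but neither difference reached the fold threshold (0.79 ± 0.091 and -0.37 ± 0.084). After thinning, 40.1% of endothelial-like and 27.3% of mural-like cells held a Col15a1 UMI, against 1.68% of neutrophil-like cells (unthinned 88.3, 71.3 and 3.96%). In arterial-endothelial-like cells (51), with fewer than 20 cells in 2 of the libraries, Col18a1 read 1529, 1559 and 2197 and Col15a1 391, 105 and 288, values given without a test.

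Mural-like cells combined both kinds of collagen. Of 36 members tested against fibroblast-like cells, 16 were higher in fibroblast-like cells, 8 lower and 12 not called, beside 10.2% and 11.0% of all 14177 genes, and the median log2 difference was 1.00 against 0.03 over all genes. Col1a1 read 6644, 5487 and 5962 in mural-like cells, below fibroblast-like cells (log2 difference of fibroblast-like over mural-like 2.34 ± 0.076, edgeR adjusted p = 2.8e-18) but above the endothelial-like and neutrophil-like values in every library. Col1a2 and Col3a1 were higher in fibroblast-like cells by 1.79 ± 0.071 and 1.80 ± 0.071. The gap was wider for Col14a1 (3.32 ± 0.12), Col11a1 (3.34 ± 0.23), Col22a1 (3.54 ± 0.15), Col23a1 (3.25 ± 0.24) and Col8a2 (3.54 ± 0.26), none of which read above 26.1 CPM in a mural-like library. Col5a1, Col5a2, Col12a1, Col16a1 and Col27a1 passed narrowly, at 1.02 to 1.08. Scaled by library totals alone, which moved the median of all genes by -0.39, these last 5 fell to 0.63 to 0.69 and were not called, and the split of members became 10 higher and 9 lower.

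Besides the type IV and multiplexin genes, Col6a3, Col6a4, Col8a1 and Col25a1 were called higher in mural-like than in fibroblast-like cells, Col25a1 at a mean under 10 CPM. Col6a3, the long chain of type VI, read 1610.2, 1661 and 1461 in mural-like and 629, 587 and 559.7 in fibroblast-like cells, without overlap, a log2 difference of -1.02 ± 0.071 (edgeR adjusted p = 9.5e-12). It was not called without replicate 2 (-0.98) or without the filter on low counts (-0.94). Col6a1 and Col6a2, its partner chains, were not called at 0.05 ± 0.070 and -0.09 ± 0.070, and the ratio of Col6a3 to Col6a2 was 0.755 ± 0.136 in mural-like, 0.493 ± 0.0845 in lining-fibroblast-like and 0.311 ± 0.0538 in sublining-fibroblast-like cells. Col6a4, an alternative type VI chain, had its highest mean level in mural-like cells. It gave 17, 24 and 39 UMIs there, or 9.66, 13.0 and 31.1 CPM, against 0.611, 0.286 and 0.226 CPM in fibroblast-like cells (-5.14 ± 0.44). The mural-like replicates of Col6a4 differed by 3.22 times. Col5a3 read 826, 763 and 814 in mural-like cells, above every fibroblast-like value (429.8, 366 and 470.3), with a difference of -0.54 ± 0.076 that did not reach the fold threshold. Col8a1, a short-chain collagen of vessel walls, was higher in mural-like cells (117, 155 and 128 against 30.9, 40.2 and 31.5, -1.57 ± 0.096) and lost its call under a stricter gate (-0.93).

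Against mural-like cells, endothelial-like cells had lower levels of most collagen genes other than those of the basement membrane. Of 28 members tested, 2 were higher in endothelial-like cells, 16 lower and 10 not called, beside 10.7% and 13.4% of all 12243 genes. The median log2 difference of the members was -1.59, against 0.01 over all genes. Lower were 7 of the 8 fibrillar genes, 4 of the 5 type VI genes and 3 of the 5 fibril-associated genes tested, and neither type IV nor multiplexin genes passed. Col6a3 differed by -4.34 ± 0.093 (edgeR adjusted p = 8.8e-17), Col5a3 by -4.14 ± 0.099, Col6a2 by -3.83 ± 0.077 and Col1a1 by -1.53 ± 0.073. The remaining named genes (Col1a2, Col3a1, Col5a1, Col5a2, Col6a1, Col8a1, Col12a1, Col16a1 and Col27a1) lay between -3.53 and -1.65. Col6a4 differed by -6.29 ± 0.51, with 4 UMIs in all endothelial-like cells. Col13a1, a transmembrane collagen of cell adhesion sites, was higher in endothelial-like cells, at 14.5, 5.17 and 16.8 against 0.568, 2.71 and 2.39 in mural-like cells (2.76 ± 0.43). In fibroblast-like cells it read 0.418, 0.571 and 0.272 (log2 difference of fibroblast-like over endothelial-like -4.62 ± 0.34). Its endothelial-like replicates differed by 3.24 times.

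**Figure D4:**
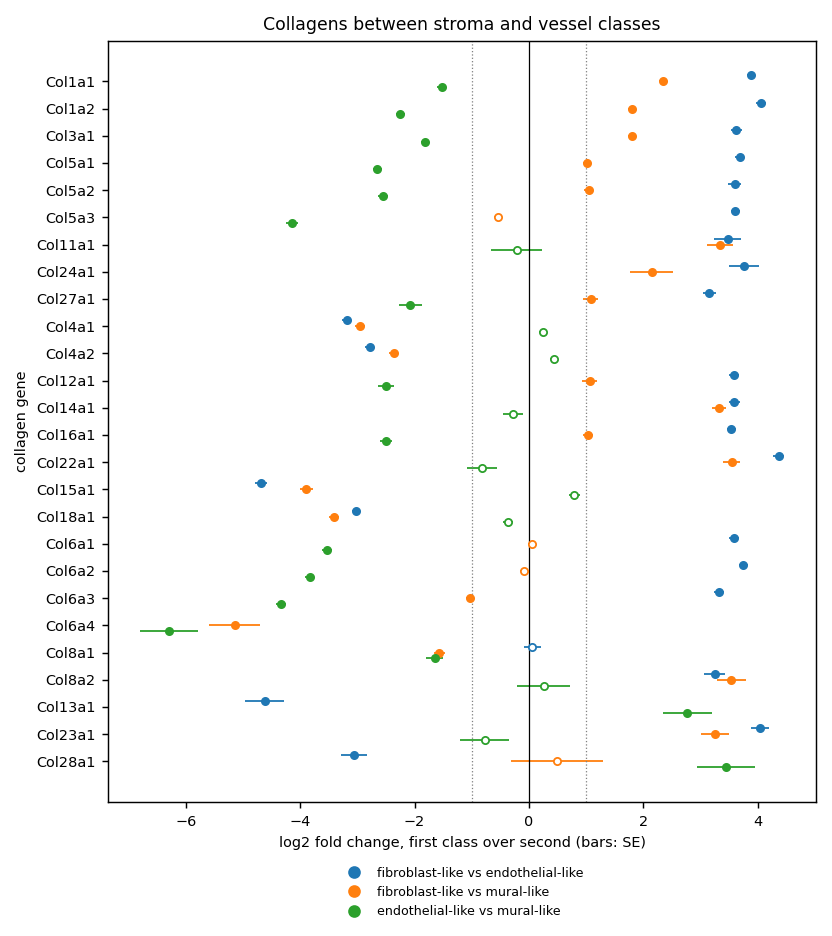
Log2 difference (horizontal axis, with SE bars) of collagen genes in 3 comparisons of fibroblast-like, endothelial-like and mural-like cells; filled points were called, open points were not, and dotted lines mark a difference of 1. Col4a1, Col4a2, Col15a1 and Col18a1 lie left of 0 in both fibroblast-like comparisons and have open points between the vessel classes.

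Within the endothelium, 1 collagen gene was called between venular and capillary cells, a share near that of all genes. Of 22 members tested between venular-endothelial-like (221 cells) and capillary-endothelial-like cells (771), none was higher and 1 was lower in the venular class, beside 2.13% and 2.35% of all 11056 genes. At an unadjusted p under 0.05, 1 member was higher and 4 lower by edgeR, and DESeq2 called 0 higher and 1 lower. The called gene was Col28a1, a beaded-filament collagen known from peripheral nerve. It gave 48, 69 and 65 UMIs in capillary cells, or 10.0, 13.8 and 14.3 CPM, and 1, 0 and 2 UMIs in venular cells. Pooled over libraries, the capillary level was 17.4 times the venular one, with an exact 95% counting interval of 5.87 to 85.3, and the edgeR adjusted p was 5.9e-06. After thinning, 1.56% (exact binomial 95% interval 0.807 to 2.70%) of capillary cells held a Col28a1 UMI, against 0.101% of neutrophil-like cells (unthinned 14.1 and 0.202%), and with classes thinned to equal cells the gene was too rare to test. Col18a1 (873, 765 and 784 in venular and 644, 482 and 621 in capillary cells, 0.56 ± 0.086) and Col4a2 (-0.31 ± 0.078) did not reach the fold threshold. Col8a1 read 443, 407 and 507 in the few arterial-endothelial-like cells and 15.2, 12.4 and 21.6 in capillary cells, given without a test.

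The lining layer of synovium carried less fibrillar collagen RNA than the sublining. Col1a1 read 10986, 8290.0 and 11633 CPM in lining-fibroblast-like cells and 37096, 33894 and 38682 in sublining-fibroblast-like cells. Col1a2 read 3771, 3010.2 and 3773 against 19733, 18258 and 18825, and Col3a1 7594, 6465 and 6699 against 14011, 13292 and 12864. All lining values lay below all sublining values for the 3 genes. The log2 differences were -1.94 ± 0.065 (edgeR adjusted p = 4.6e-10), -2.53 ± 0.063 and -1.05 ± 0.054, and the call of Col3a1 was lost with scaling by library totals alone (-0.96) and with classes thinned to equal cells (-0.88). Of 33 members tested, 2 were higher in lining cells, 16 lower and 15 not called, beside 5.51% and 8.83% of all 13060 genes. The median log2 difference was -0.94, against -0.02 over all genes. Lower were 6 of the 10 fibrillar genes tested, 5 of the 8 fibril-associated genes and both short-chain genes. The marker Acan, a cartilage proteoglycan, moved with them, at 12.8 in lining and 280.1 CPM in sublining cells, and its part in the result was not tested.

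Chains of the same fibril did not differ by the same amount. The ratio of Col1a1 to Col1a2 was 2.92 ± 0.165 in lining and 1.93 ± 0.108 in sublining cells, without overlap between libraries, and 1.47 ± 0.144 in mural-like cells. Neutrophil-like cells gave 2.30 ± 0.128. The ratio of Col1a1 to Col3a1 was 1.49 ± 0.230 in lining and 2.73 ± 0.241 in sublining cells. Of the type V chains, Col5a1 read 746, 647 and 730.3 against 1254, 1283 and 1263 (-0.94 ± 0.061, under the fold threshold), whereas Col5a3 went the other way, at 572, 477 and 544 against 251, 262 and 324 without overlap (0.84 ± 0.080, adjusted p = 4.7e-06 by edgeR, also under the fold threshold). Col5a2 read 999, 914 and 785 in lining and 1113, 1124 and 936 in sublining cells, which overlapped. Lower in lining cells were also Col11a1 (log2 difference -3.49 ± 0.089), Col27a1 (-1.47 ± 0.089) and Col24a1 (-1.57 ± 0.15), the last losing its call under a stricter gate (-0.94). The type VI chains Col6a1 (-0.52 ± 0.058), Col6a2 (-0.54 ± 0.062) and Col6a3 (0.13 ± 0.066) were not called, nor was Col23a1, at 20.7, 27.9 and 22.8 in lining and 39.8, 45.1 and 32.6 in sublining cells (-0.81 ± 0.096).

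Among fibril-associated genes with at least 10 CPM, 1 was higher in the lining and 3 in the sublining. Col22a1, known from tissue junctions such as that of muscle and tendon, read 265, 270.2 and 216 in lining and 9.78, 9.40 and 20.01 in sublining cells. Every lining value was more than 10 times every sublining value, and the log2 difference was 4.18 ± 0.21 (edgeR adjusted p = 1.6e-08). After thinning, 17.7% (exact binomial 95% interval 16.02 to 19.6%) of lining cells and 1.77% (exact binomial 95% interval 1.28 to 2.39%) of sublining cells held a Col22a1 UMI, against 0.798% of neutrophil-like cells (unthinned 65.5, 11.6 and 2.12%). Col14a1, which controls fibril growth in skin and tendon, read 41.0, 41.9 and 39.2 against 385, 403 and 393 (-3.37 ± 0.068). Col12a1, its relative in tissues under tension, read 47.0, 44.1 and 39.6 against 316, 341 and 227 (-2.83 ± 0.082). Col16a1 was lower in lining cells (log2 difference -1.98 ± 0.068), as were the short-chain genes Col8a1 (-2.37 ± 0.10) and Col8a2 (-3.18 ± 0.11). The other 6 genes called (Col4a5, Col6a6, Col9a1, Col9a2, Col17a1 and Col28a1) stayed under 10 CPM, and Col17a1 was the only one of them higher in lining cells (1.36, 1.25 and 2.35 against 0.645, 0.770 and 0.189).

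**Figure D5:**
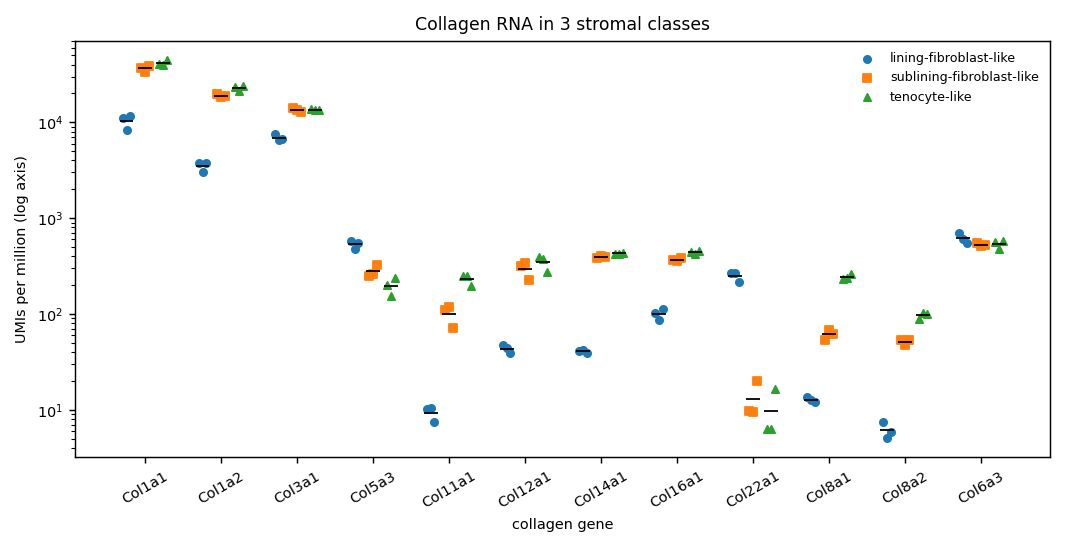
Level of 12 collagen genes (CPM, log axis) in lining-fibroblast-like, sublining-fibroblast-like and tenocyte-like cells, with 1 point per library and a bar at the mean. Col22a1 and Col5a3 are highest in the lining class, and the type I, XI, XII, XIV, XVI and VIII genes are lowest there.

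Tenocyte-like cells had the highest collagen share of the 14 classes, in a mix close to that of the sublining. Their fibrillar share was 93.1% ± 0.163 of collagen UMIs, against 93.1% ± 0.212 in sublining cells. Col1a1 read 40814, 39370.0 and 45121, all above the sublining values, and was higher than in the whole fibroblast-like class by 0.95 ± 0.055, just under the fold threshold. Of 37 members tested, 9 were higher in tenocyte-like cells, 2 lower and 26 not called, beside 2.69% and 2.34% of all 14142 genes, with a median log2 difference of 0.59 against 0.01. Col8a1 read 232, 237 and 260.3 in tenocyte-like and 30.9, 40.2 and 31.5 in fibroblast-like cells (2.94 ± 0.080, edgeR adjusted p = 9.7e-13). Col11a1 read 251, 247 and 197 against 47.8, 67.7 and 31.5 (2.40 ± 0.10). Scaled by library totals alone, which moved the median of all genes by -0.11, the split of members was 9 higher and 4 lower. Neither Col8a1 nor Col11a1 overlapped between the classes. Col8a2 (2.06 ± 0.077) and Col14a1 (1.33 ± 0.071) were also higher, as were Col12a1 (1.24 ± 0.072), Col1a2 (1.17 ± 0.062) and Col16a1 (1.11 ± 0.057), whose calls were lost when classes came from clusters (0.61, 0.95 and 0.76). Col12a1 also lost its call under a stricter gate (0.93) and with thinning (0.84), and Col16a1 with thinning (0.94). The fibroblast-like class includes the lining cells. Sublining means were 394 (Col14a1), 295 (Col12a1), 18939 (Col1a2) and 367 CPM (Col16a1), against 429, 347, 22755 and 442 in tenocyte-like cells. For Col8a1, Col11a1 and Col8a2 they were 61.6, 99.5 and 51.4 against 243, 232 and 97.5, and these classes were not compared by a test.

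Col22a1 was lower in tenocyte-like than in fibroblast-like cells, at 6.28, 6.37 and 16.6 against 94.9985, 88.3 and 92.8 (-3.07 ± 0.17), near the neutrophil-like 9.75, 7.46 and 8.71. The fibroblast-like class includes the lining cells, where Col22a1 averaged 250 CPM, while sublining cells averaged 13.1, near the tenocyte-like level. Tenocyte-like and sublining cells were not compared by a test. Col5a3 was lower (log2 difference -1.003 ± 0.060, edgeR adjusted p = 6.2e-09), a call at the threshold that was lost with classes from clusters (0.09, edgeR adjusted p = 0.295). The call was also lost without the replicate block (-0.99), without replicate 2 (-0.94) and with doublets kept (-0.98). The cartilage chains Col9a2 and Col11a2 were called higher at mean levels under 10 CPM. For each of them 2 of the 820 tenocyte-like cells held much of the total, with 23 of 46 UMIs for Col9a2 and 18 of 53 for Col11a2. Acan moved with these genes, at 705 CPM in tenocyte-like and 111 in fibroblast-like cells, which was not tested as a source of the differences, and 254 of the 820 cells lay within 0.05 of the cut of the tenocyte score. Basement-membrane and multiplexin genes were not called in either direction.

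Collagen RNA in leukocytes stood at a low fraction of the library's level for most genes. Of 33 members tested between monocyte/macrophage-like (10599 cells) and neutrophil-like cells (11906), none was higher and 7 were lower in the first class, beside 18.8% and 20.9% of all 14269 genes. The median log2 difference was -0.75, against -0.02 over all genes. Col1a1 read 1699, 1920.0 and 1711 in monocyte/macrophage-like and 2429, 2435 and 2404 in neutrophil-like cells, whose median depths in replicate 1 were 7770.5 and 1937 UMIs. All 7 genes called (Col2a1, Col9a3, Col11a1, Col11a2, Col20a1, Col24a1 and Col27a1) read at most 5.65 CPM in any monocyte/macrophage-like library. The count was 14 without replicate 2. Some neutrophil-like levels leaned on few cells. The 2 highest neutrophil-like cells for each gene held 87.9% of the UMIs of Col2a1, 34.8% of Col9a3 and 32.1% of Col11a2. The shares were 24.2% for Col11a1, 12.8% for Col27a1 and 8.77% for Col24a1. At an unadjusted p under 0.05, 0 members were higher and 29 lower by edgeR, and DESeq2 called 0 higher and 7 lower.

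Osteoclast-like cells (355), the multinucleate bone-resorbing cells marked by Acp5 at 5708 CPM, were an exception for 1 gene, singled out after its values were seen and given without a test. Col27a1 read 88.1, 107 and 92.8 there from 225, 228 and 124 UMIs, against 3.66, 4.16 and 4.10 in monocyte/macrophage-like cells and 78.3, 80.2 and 77.8 in sublining-fibroblast-like cells. The osteoclast-like values lay above all of these. After thinning, 12.1% (exact binomial 95% interval 8.91 to 15.97%) of osteoclast-like cells held a Col27a1 UMI, against 0.462% (exact binomial 95% interval 0.342 to 0.611%) of monocyte/macrophage-like and 0.823% of neutrophil-like cells (unthinned 53.2, 2.98 and 1.81%). The other 21 collagen genes measured this way stayed below the whole-library level in this class, with a median over the 22 of 19.4%.

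Col2a1, the type II chain of cartilage and the antigen used to immunise the mice, was concentrated in few cells. It gave 3466 UMIs in 783 of the 36869 cells, and 11 cells with at least 20 UMIs held 75.5% of them. Of these 11 cells 5 were chondrocyte-like, 3 carried osteoblast markers, 2 were in the neutrophil gate and 1 in no gate, with 4 in replicate 1, 0 in replicate 2 and 7 in replicate 3. The neutrophil-like level of 4.10, 2.02 and 96.8 CPM rested on 2 cells with 659 of 750 UMIs, and the pooled level of 23.3 became 2.83 without them. The difference from monocyte/macrophage-like cells (-3.06 ± 1.00, edgeR adjusted p = 0.0216) was not called without replicate 3 (-0.62, edgeR adjusted p = 0.0571), with DESeq2 (-2.07, adjusted p = 0.159), with classes from clusters (-0.75, edgeR adjusted p = 0.0113) or with free RNA subtracted (-5.43, edgeR adjusted p = 0.0582). In the 9, 16 and 8 chondrocyte-like cells Col2a1 read 5897, 53.0 and 1392, and its partners in cartilage fibrils read 565, 665 and 460.2 (Col11a1), 924, 21.7 and 356 (Col11a2), 159.9, 9.63 and 121 (Col9a1), 215, 4.82 and 214 (Col9a2) and 80.0, 26.5 and 121 (Col9a3). Replicate 2 was lowest for all of these but Col11a1.

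Genes that modify, export, process, cross-link or bind collagen were followed beside the chains. All 46 genes of a list for these steps were measured. Against endothelial-like cells 29 of 44 tested were higher and 6 lower in fibroblast-like cells, beside 16.3% and 12.2% of all genes, so that the lower count was near the background. The median was 1.80, and 9 of 13 hydroxylases and glycosyltransferases, 7 of 9 chaperones and export genes, 5 of 7 propeptide-processing genes and 4 of 5 cross-linking genes were higher. Leading were Pcolce2, an enhancer of propeptide cleavage (4.46 ± 0.18), Loxl2, a cross-linking oxidase (4.25 ± 0.13), and Creb3l1, a transcription factor of the secretory pathway (4.21 ± 0.084). Higher in endothelial-like cells were Adgrg1, a receptor for type III collagen (-5.03 ± 0.090), Tll1, a propeptide protease (-3.45 ± 0.12), and P3h2, a prolyl hydroxylase known for acting on type IV collagen (-2.23 ± 0.13). Against mural-like cells 20 of 43 were higher and 4 lower in fibroblast-like cells, beside 10.2% and 11.0% of all genes, led by Pcolce2 (5.74 ± 0.35), Lox (3.95 ± 0.096) and Plod2, a lysyl hydroxylase (3.33 ± 0.11), and on the other side Itga1, a subunit of a collagen-binding integrin (-4.82 ± 0.10), P3h2 (-3.45 ± 0.17) and Tmem38b (-1.49 ± 0.17). Between endothelial-like and mural-like cells 4 of 43 were higher and 19 lower, beside 10.7% and 13.4% of all genes, with Tll1 (5.22 ± 0.34) and Adgrg1 (4.72 ± 0.16) higher and Adamts2, which cleaves fibrillar propeptides (-4.84 ± 0.11), the collagen receptor Ddr2 (-4.72 ± 0.13) and Loxl2 (-3.44 ± 0.13) lower. Adjusted p-values of all genes named from this list were 0.000124 or lower by edgeR.

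Between lining and sublining 3 of 42 processing genes were higher and 4 lower in lining cells, beside 5.51% and 8.83% of all genes, shares near the background, with a median of 0.08. Loxl2 read 436, 399 and 367 CPM in lining and 187, 186 and 183 in sublining cells (1.012 ± 0.065), and Adamts14, a propeptide protease, was also higher (1.99 ± 0.13). The collagen-binding integrin subunit Itga11 (-2.81 ± 0.13), Adamts2 (-1.42 ± 0.078) and the prolyl hydroxylase subunit P4ha3 (-1.28 ± 0.071) were lower. In tenocyte-like against fibroblast-like cells the direction was the opposite for 3 of these genes, with Itga11 higher (1.30 ± 0.071) and Adamts14 (-1.95 ± 0.13) and Loxl2 (-1.21 ± 0.062) lower, among 2 higher and 3 lower of 44, beside 2.69% and 2.34% of all genes. The contrasts are not independent, as the fibroblast-like class includes the lining cells. Sublining means were 75.0 (Itga11), 11.6 (Adamts14) and 185 CPM (Loxl2), against 96.6, 7.24 and 128 in tenocyte-like cells. In venular against capillary cells 2 of 39 were higher, Tll1 (1.77 ± 0.19) and P3h3 (1.06 ± 0.16), and 1 lower, Itga1 (-1.09 ± 0.17), beside 2.13% and 2.35% of all genes. In monocyte/macrophage-like against neutrophil-like cells 5 of 41 were higher and 5 lower, beside 18.8% and 20.9% of all genes, with the inhibitory collagen receptor Lair1 (1.24 ± 0.11), Itga1 (1.23 ± 0.16) and the chaperone Ppib (1.10 ± 0.10) higher and Tmem38b, an endoplasmic reticulum channel (-1.40 ± 0.095), lower.

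The 3 libraries gave close values for most members. Among genes with at least 10 CPM, the highest library was a median of 1.19 times the lowest over 22 genes in fibroblast-like cells, 1.15 over 21 in tenocyte-like cells, 1.15 over 20 in mural-like cells and 1.23 over 18 in endothelial-like cells. In adipocyte-like and osteoclast-like cells, with fewer cells, it was 1.41 and 1.51 over 17 genes each. The widest spreads were Col15a1 in adipocyte-like cells (3.40 times), Col13a1 in endothelial-like cells (3.24) and Col6a4 in mural-like cells (3.22). Because each library is a pool of 2 mice, these are spreads between pools.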

How the data were processed

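Single-cell RNA was measured in 3 libraries (replicates 1 to 3) of 2 pooled mice each. Values are the deposited UMI counts of each gene in each barcode. Per the file headers, PISA 1.0 made the matrices. The aligner is not given in the sources used here. The submitters' processing notes name Seurat 3.0.2, R 3.6 and GRCm39. Barcodes with under 200 genes or over 20% mitochondrial UMIs were removed, and doublets were called by simulated doublets with scanpy 1.11.5 at a score of 0.2 (1853 cells). Cells were classed by marker scores on lists without collagens. UMIs were summed per library and class, and classes with at least 20 cells in every library were tested with edgeR 4.0.16 (quasi-likelihood, TMM, filterByExpr, Benjamini-Hochberg adjustment over all genes, library as block, two-sided). The block stands for the same pooled mice, and same-library deviations correlated at 0.195 to 0.741 in the 7 comparisons. The test was checked on simulated counts. Intervals cover counting error only. The edgeR p-values rest on the spread between 3 libraries, with the dispersion of each gene drawn toward that of all genes. A very small p is thus not a measure of a single gene's own spread. The SE was derived from the F statistic of the same fit. Members named in a comparison were called, moved one way in each of the 3 libraries and averaged 10 CPM or more in whichever class was higher; from the collagen-processing list the 3 largest in each direction were named by the same filter. The members and lists were chosen with earlier results of these data known. Alternatives were DESeq2 1.42.0, library totals alone, no low-count filter, no replicate block, each replicate left out, a stricter gate, Leiden clusters, doublets kept, free RNA subtracted, and thinning to equal cells. Smooth-muscle-like cells (17 in replicate 2) were not compared with pericyte-like cells, and triple-helix repeats in the proteins were not analysed here.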

Additional observations from a re-analysis of the deposited data

How the results depend on the processing

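The 3 libraries of pooled mice set the precision, and 14 classes had at least 20 cells in every library. The replicate block came from the pairing of classes within a library: without it, 29, 23, 18, 1, 18, 10 and 8 members were called in the 7 comparisons in the order of the text, against 29, 24, 18, 1, 18, 11 and 7 with it, and no count moved by over 1.5 times. With classes thinned to equal cells and 1000 UMIs a cell, 19 members were called between fibroblast-like and endothelial-like cells, 11 between fibroblast-like and mural-like cells, 11 between lining and sublining and 0 between venular and capillary cells (Col28a1 was too rare to test; 4 of the 7 members tested by edgeR had an unadjusted p under 0.05, 1 higher and 3 lower). Between monocyte/macrophage-like and neutrophil-like cells, 12 were called without the low-count filter, 25 with free RNA subtracted from the first class only, and 5 to 14 when each replicate was left out. Scaling by library totals alone moved the median log2 difference of all genes by -0.23 (fibroblast-like over endothelial-like), -0.17 (endothelial-like over mural-like) and 0.30 (monocyte/macrophage-like over neutrophil-like). Of all genes called, the share higher in the first class went from 48.0 to 26.1% between fibroblast-like and mural-like, from 53.5 to 42.3% between tenocyte-like and fibroblast-like and from 47.2 to 64.6% between monocyte/macrophage-like and neutrophil-like cells. The fibrillar share of fibroblast-like collagen UMIs was 91.5% with the stricter gate and 91.7% with Leiden clusters (91.2% as reported). The family's share of UMIs in that class was 5.57%, 5.27% and, with free RNA subtracted, 5.66% (5.13% as reported). The type IV share in endothelial-like cells was 46.6% with Leiden clusters, 47.1% with doublets kept and 77.6% with free RNA subtracted, and in mural-like cells it was 14.8% with Leiden clusters and 21.7% with free RNA subtracted. With free RNA subtracted, 11 members reached 10 CPM in endothelial-like cells (18 as reported). Over 80 named pairs of member and comparison, 910 of 944 alternative values kept their direction and call, 33 kept the direction only, and 1 reversed: Col5a3 in tenocyte-like over fibroblast-like cells, 0.0903 with Leiden clusters. The cause of these changes was not tested. The 66 pairs called under every alternative run that tested them include all those of Col4a1, Col4a2, Col15a1, Col18a1 and Col22a1. Thinning to equal cells tested 65 of the 80 pairs and Leiden clusters tested 79, so a pair may count among the 66 without these runs. Venular against capillary cells could not be tested with Leiden clusters, since these gave 1 endothelial cluster.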
